A study of Mus musculus with 4 samples.

Results

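Matrix metalloproteinases (MMPs) are zinc-dependent enzymes that cut collagens and other proteins of the extracellular matrix, and tissue inhibitors of metalloproteinases (TIMPs) are secreted proteins that block them. Most MMPs are released as inactive precursors and need a cut by another protease before they act. In the skeleton they are known for removing cartilage matrix at the growth plate and for opening bone matrix to remodelling. Here 10 genes were followed, namely Mmp2, Mmp3, Mmp9, Mmp11, Mmp13, Mmp14, Timp1, Timp2, Timp3 and Timp4. They were chosen by symbol as MMP and TIMP genes of interest in cartilage and bone, with earlier results of these data known. They are 10 of the 32286 features counted in each library, of which 23481 had at least 1 count in the cells analysed.

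The data are single-cell RNA-seq counts of tdTomato-labelled cells sorted from mouse vertebrae T11 to L2, with CD11b, CD31 and CD45 positive cells and dead cells removed by the sort. Prss56-Cre labels cells derived from boundary caps, a neural crest derived population at the nerve roots, so the sort aimed at that lineage. The cells analysed still included 87 with a count of the blood cell gene Ptprc. The paper removed immune, smooth muscle and endothelial cells as contamination. There were 4 libraries, 1 for each condition. The control genotype was Prss56Cre/+;R26tdTom/tdTom;Nf1+/+ and the mutant genotype was Prss56Cre/Cre;R26tdTom/tdTom;Nf1fl/fl, each at 3 months and at 12 to 16 months of age. Nf1 encodes neurofibromin, a brake on RAS signalling, and floxed Nf1 is inactivated where the Cre acts. All libraries carried R26tdTom on both alleles. Control mice carried 1 Cre allele and mutant mice 2, so the number of Cre alleles and the Nf1 genotype cannot be told apart. How many animals were pooled in a library is not given in the sources used here. Below, each series of 4 values gives control and mutant at 3 months, then control and mutant at 12–16 months.

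Cells were kept with over 750 unique molecular identifier (UMI) counts, over 500 genes and under 7% mitochondrial counts. This left 717, 484, 135 and 421 of 922, 542, 163 and 545 barcodes, with median counts of 11467, 12644, 11702 and 8189 UMIs per cell, and no barcode was shared between libraries. Nf1, the targeted gene, stood at 131, 149.7, 147 and 125 counts per 1000000 UMIs (CPM), so it was not lower in the 3-month mutant library than in its control, and 3′ counts need not show the loss of internal exons. For this reason "mutant" means the library so labelled throughout. Counts of the Y-linked genes Ddx3y, Eif2s3y, Kdm5d or Uty were found in 67 of 717, 5 of 484, 24 of 135 and 72 of 421 cells. Cells with Xist and no Y-linked count numbered 572, 466, 93 and 291. The libraries therefore held male and female cells in unequal shares, and the 3-month mutant library was nearly all female by this measure.

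Cells were sorted into 4 sets by marker counts that use none of the 10 genes. The Prkg2-gated cartilage set had at least 1 Sox9 count and at least 2 counts of Ihh, Panx3 and Prkg2 together, and held 38, 136, 15 and 56 cells. Other cartilage had at least 1 Sox9 and at least 3 Acan counts, and held 525, 241, 74 and 202 cells. The bone and stroma set had at most 2 Acan counts and at least 1 Runx2 count, and held 43, 16, 25 and 76 cells. Blood cells had at least 1 Ptprc count and held 13, 42, 2 and 30 cells. The first set was proposed as hypertrophic chondrocytes, but Col10a1 went against that name for most of its cells. Col10a1, the collagen that defines hypertrophic cartilage, was detected in 43 of its 245 cells (17.6%) and in 187 of 1042 other cartilage cells (17.9%). Cells with at least 10 Col10a1 counts were more frequent in it, at 33 of 245 (13.5%) against 41 of 1042 (3.93%). Prkg2 was found in 243 of 245 of its cells, which follows largely from the gate, since Prkg2 is one of the genes that define it. Of genes outside the gate, its cells shared Pth1r (98.0% against 39.6% of other cartilage cells) and Sp7 (65.7% against 5.09%). Pth1r is on the list of hypertrophic chondrocyte markers used here, so the markers did not all go the same way. The set is therefore named here by Prkg2, and the cells with at least 10 Col10a1 counts are given apart where they differ. In the bone and stroma set, Ibsp was detected in 86.9% of 160 cells, Col1a1 in 81.9%, Cxcl12 in 71.9% and Lepr in 68.1%, so it mixed osteoblast-like and marrow stroma-like cells. The 3′ counts are not scaled for transcript length or for capture, so levels were compared between cells for each gene and not between genes. Where the summed level of a gene was lower in a set, fewer cells using it and less RNA per cell cannot be told apart from the sum alone, and shares of cells are given for that reason.

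RefSeq start-site windows (build GRCm38.p6) were read for 8 of the 10 genes, and none was found for Mmp2 and Mmp9. The 250 bases before each start were searched on both strands for 3 short motifs. These were TGANTCA (the AP-1 site of Fos and Jun proteins), TGTGGT (the core bound by RUNX factors) and TATAAA (the TATA box). Mmp13 and Mmp14 are shown because both were highest in bone and stroma cells. Mmp3 is shown because it lies in the same region of chromosome 9 as Mmp13 and was not detected in those cells. Capitals mark the motif matches.
Mmp13 (chr9:7272264-7272513, + strand): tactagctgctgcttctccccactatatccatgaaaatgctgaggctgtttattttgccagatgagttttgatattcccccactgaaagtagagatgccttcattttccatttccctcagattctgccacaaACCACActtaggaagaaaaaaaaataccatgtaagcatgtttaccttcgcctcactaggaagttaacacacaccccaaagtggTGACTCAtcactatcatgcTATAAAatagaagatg
Mmp14 (chr14:54431348-54431597, + strand): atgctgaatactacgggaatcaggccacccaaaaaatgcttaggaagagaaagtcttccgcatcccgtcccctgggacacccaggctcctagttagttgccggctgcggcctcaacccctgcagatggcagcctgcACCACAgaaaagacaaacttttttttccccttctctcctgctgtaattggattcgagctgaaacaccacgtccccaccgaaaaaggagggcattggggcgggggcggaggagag
Mmp3 (chr9:7445572-7445821, + strand): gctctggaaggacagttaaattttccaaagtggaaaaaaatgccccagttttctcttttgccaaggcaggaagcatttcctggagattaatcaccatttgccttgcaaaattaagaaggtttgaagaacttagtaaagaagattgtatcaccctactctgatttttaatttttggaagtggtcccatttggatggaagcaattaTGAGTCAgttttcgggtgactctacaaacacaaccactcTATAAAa
The AP-1 letters stood 35 bases before the start of Mmp13 and 46 bases before that of Mmp3. The RUNX core was read on the opposite strand, as ACCACA, 118 bases before the start of Mmp13 and 114 bases before that of Mmp14. The TATAAA letters were found 16 bases before the Mmp13 start and 7 bases before the Mmp3 start. Each motif was present in 2 of the 8 windows. Among 32851 windows of the same length, AP-1 letters were present in 6.75%, the RUNX core in 14.0% and TATAAA in 12.4%. These are matches of letters and were not tested as binding sites.

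Mmp13, also called collagenase 3, cuts fibrillar collagens and is a marker of late hypertrophic cartilage and of osteoblasts. It lies on chromosome 9 at 7272514 to 7283331 (GRCm38, + strand). In bone and stroma cells it stood at 4001, 3213, 1839 and 2882 CPM, detected in 24, 10, 13 and 43 cells. These cells held 7480 of all 8395 Mmp13 counts (89.1%), although only 90 of the 160 cells had any. After thinning each cell to 2000 UMIs, so that depth is the same, the expected share of bone and stroma cells with Mmp13 was 51.0%, against 0.178% of blood cells. Within the set, cells with at least 5 Cxcl12 counts, a marrow stroma chemokine, had more Mmp13 than the rest. The 95 Cxcl12 cells stood at 6096, 4026, 4820 and 3590 CPM, and the 45 other cells with at least 10 counts of the bone matrix genes Bglap and Ibsp stood at 1980, 1822, 689 and 2206 CPM. The first range lay wholly above the second, and 69.5% against 44.4% of cells had an Mmp13 count. Cxcl12 cells were split off first, whatever their bone gene counts, so the split does not part stroma from bone cells. The top Mmp13 cells of the 3-month control, 3-month mutant and 12–16-month control libraries held 310, 310 and 664 Ibsp counts. These cells had 26, 32 and 32 Cxcl12 counts and so were among the Cxcl12 cells.

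In Prkg2-gated cartilage Mmp13 was sparse, at 2.26, 6.69, 2.53 and 75.1 CPM, with 108 counts in 12 of 245 cells. The 12–16-month mutant library stood apart from the other 3. Of those 108 counts, 101 came from 5 cells with at least 5 counts each. All 5 held at least 100 counts of Spp1 (osteopontin), 4 of 5 held Col10a1, and 5 of 5 held Ihh or Panx3. In other cartilage the levels were 106.2, 0, 2.19 and 2.31 CPM, and the first value rested on 1 cell with 771 of 784 counts. That cell held 62489 UMIs, 1091 of Ibsp and 7893 of Spp1, and was not called a doublet. Without it the 3-month control stood at 1.78 CPM. The absence in the 3-month mutant was 0 of 241 cells.

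**Figure D1:**
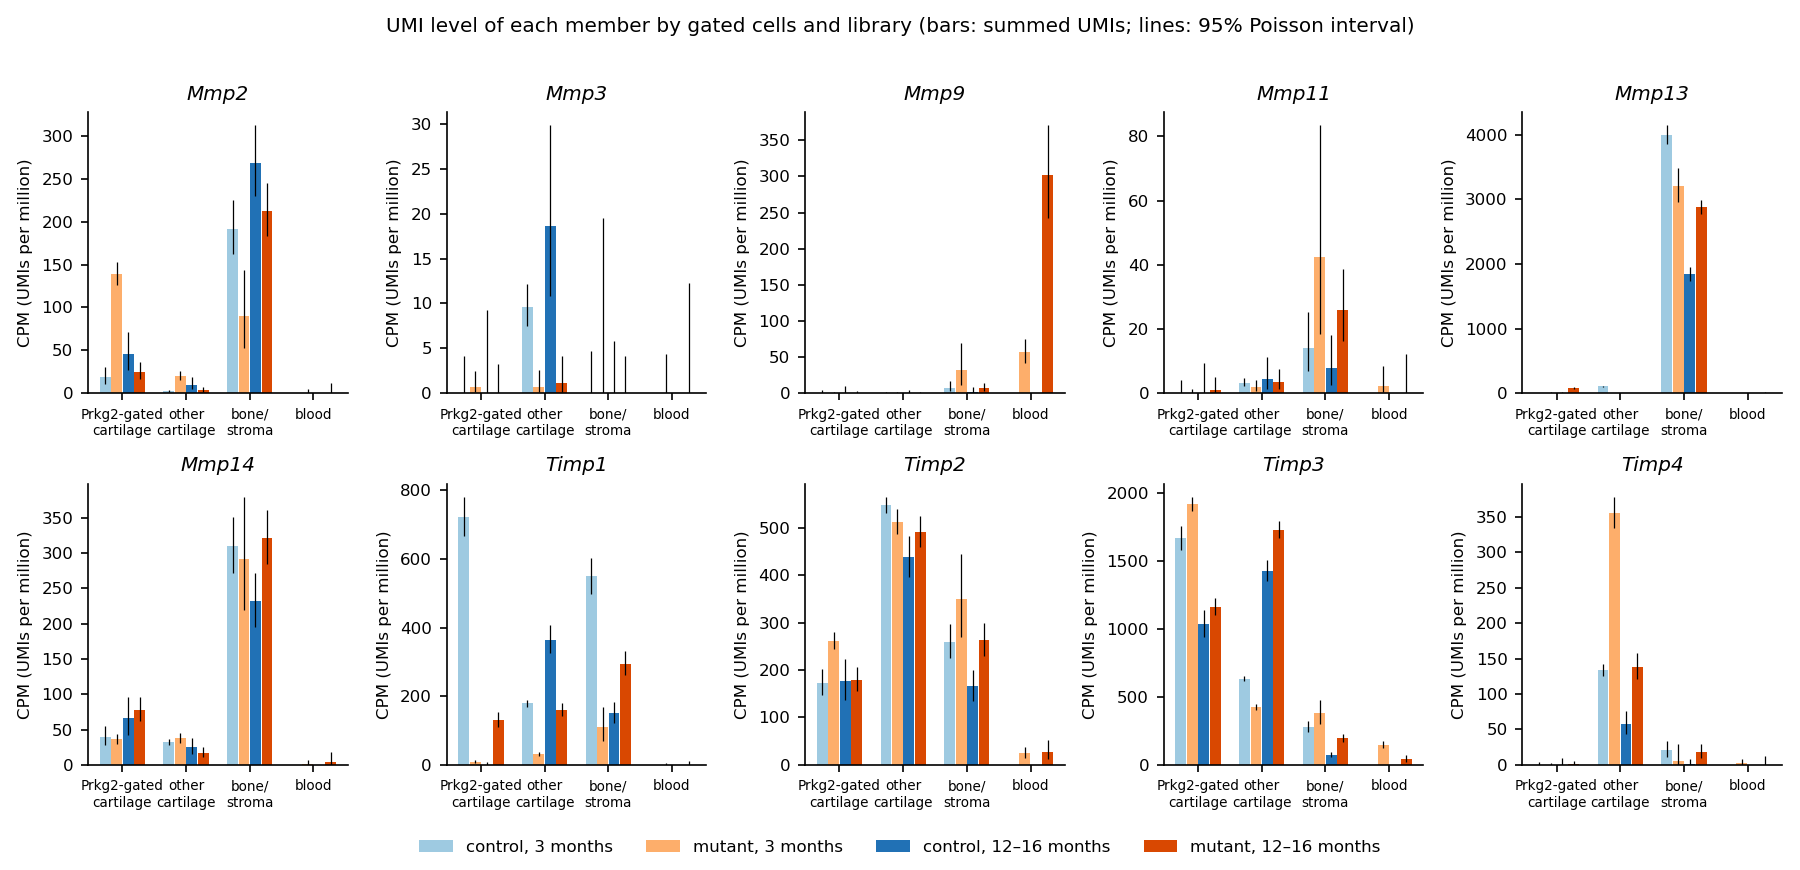
Level of each gene in CPM (bars, linear axes starting at 0) in the 4 cell sets of each library, with 95% Poisson intervals that cover counting error only. Control blood cells are left out because their sums held under 100000 UMIs. Of the 4 sets, Mmp13 and Mmp14 stand highest in bone and stroma, Timp4 in other cartilage in every library, and Mmp9 in the blood cells of both mutant libraries. Cells outside the 4 sets are not drawn.

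Mmp2 (gelatinase A) cuts denatured collagen and type IV collagen, and lies on chromosome 8 at 92827291 to 92853420. In bone and stroma cells it stood at 192, 90.0, 269 and 212 CPM, in 79 of 160 cells. This was its highest set in all libraries but the 3-month mutant. Within that set Cxcl12 cells stood at 129.6, 98.0, 106 and 88.0 CPM and Bglap or Ibsp cells at 287, 80.4, 335 and 446 CPM. The order was opposite to that of Mmp13 in 3 libraries and not in the 3-month mutant, where the second value rests on 3 cells with 3 counts. In Prkg2-gated cartilage it stood at 19.2, 139, 45.5 and 24.7 CPM, detected in 11 of 38, 102 of 136, 7 of 15 and 16 of 56 cells. The 3-month mutant library was the high one, and its interval of 126 to 153 CPM did not reach those of the others, the widest of which ended at 71.8 CPM. At equal depth the shares of cells were 3.20%, 21.2%, 6.56% and 4.20%, so the same library led by share as by level. Other cartilage held little, at 2.30, 19.6, 9.87 and 3.47 CPM. There Mmp2 followed Runx2, the osteoblast factor. Cells with a Runx2 count stood at 16.0, 68.7, 39.2 and 20.6 CPM, and the remaining cells at 0.472 CPM over all libraries. No Mmp2 count was found in 87 blood cells.

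Mmp9 (gelatinase B) is made by neutrophils and osteoclasts. It lies on chromosome 2 at 164940780 to 164955850, and 149 of its 177 counts came from 11 blood cells. All 11 were among the 22 cells of that set with S100a8, S100a9 or Retnlg, neutrophil genes, where Mmp9 stood at 368 CPM. These are cells the CD45 and CD11b sort was set to remove, and 4 and 6 of the 11 were in the 3-month and 12–16-month mutant libraries, which also held 42 and 30 of the 87 blood cells. Bone and stroma cells held 19 Mmp9 counts in 8 cells, and Prkg2-gated cartilage held none in 245 cells.

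Mmp14 (membrane-type 1 MMP) sits on the cell surface, cuts collagen and activates the Mmp2 precursor together with Timp2. It lies on chromosome 14 at 54431612 to 54445364. Bone and stroma cells stood at 309, 291, 231 and 321 CPM, detected in 129 of 160 cells. The libraries were close to each other here, and no value was more than 1.5 times another. Prkg2-gated cartilage stood at 39.6, 36.1, 65.7 and 77.8 CPM and other cartilage at 32.1, 37.8, 25.2 and 17.3 CPM. The thinned shares were 42.2% in bone and stroma, 8.39% in Prkg2-gated cartilage, 5.28% in other cartilage and 0.669% in blood cells. Like Mmp13, it was higher in Cxcl12 cells (366 CPM) than in Bglap or Ibsp cells (224 CPM). In the 160 bone and stroma cells, Mmp14 was found in 74 of the 79 cells with Mmp2 and in 80 of the 90 with Mmp13, and 58 cells held both Mmp2 and Mmp13.

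The stromelysins were rare. Mmp3 (stromelysin 1), on chromosome 9 at 7445822 to 7455975, gave 95 counts in 18 cells, of which 92 counts were in 16 other cartilage cells. It stood there at 9.62, 0.700, 18.6 and 1.16 CPM. One 3-month control cell held 55 of its library's 71 counts and one 12–16-month control cell held 13 of 17, and both were rich in Prg4, the lubricin of joint surfaces, with 185 and 634 counts. Without them the control values were 2.17 and 4.48 CPM. Mmp3 was not found in 160 bone and stroma cells. Mmp11 (stromelysin 3), on chromosome 10 at 75923222 to 75936496, gave 102 counts. It stood at 14.1, 42.3, 7.82 and 25.8 CPM in bone and stroma, in 31 of 160 cells, in other cartilage at 3.25, 1.75, 4.39 and 3.47 CPM, and 1 count was found in Prkg2-gated cartilage. Within bone and stroma it was at 31.9 CPM in Cxcl12 cells and 4.31 CPM in Bglap or Ibsp cells. Both genes failed the filter on low counts for the test between cell sets, as did Mmp9.

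Timp2 binds the active site of MMPs and is part of the complex on Mmp14 that activates Mmp2. It lies on chromosome 11 at 118301069 to 118355740. Its levels in other cartilage were close in all libraries. It stood there at 548, 512, 438.5 and 492 CPM, in 972 of 1042 cells (93.3%, or 60.0% after thinning). Prkg2-gated cartilage was lower, at 173, 262, 177 and 179 CPM (32.7% after thinning), and so was bone and stroma, at 260, 349, 166 and 263 CPM (41.3%). Neither lower range reached the other cartilage range. Blood cells had a thinned share of 9.10%, and whether this is background was not tested. Within the Prkg2-gated set, cells with at least 10 Col10a1 counts stood at 78.8 CPM and the rest at 249 CPM.

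Timp3 binds to matrix and also inhibits ADAM proteases that shed cell surface proteins. It lies on chromosome 10 at 86300372 to 86349506. It was found in 243 of 245 Prkg2-gated cells, at 1670, 1922, 1038 and 1163 CPM. In this set it went the opposite way to Timp2, with 2879 CPM in cells with at least 10 Col10a1 counts and 1444 CPM in the others. Other cartilage split by age. Its levels were 633 and 424.5 CPM at 3 months and 1430 and 1730 CPM at 12–16 months. Both older libraries were above both younger ones, and the thinned shares of 43.4%, 34.7%, 59.7% and 67.1% had the same order by age. Bone and stroma was low, at 281, 381, 73.5 and 194 CPM in 66 of 160 cells.

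Timp4, known mainly from the heart, lies on chromosome 6 at 115241892 to 115252205. In other cartilage it stood at 134, 355.5, 58.1 and 139 CPM, detected in 258, 153, 27 and 87 cells (525 of 1042). Cells outside the 4 sets stood higher in every library, at 195, 420, 170 and 331 CPM, with 374 counts in 58 of 223 cells. What these cells are was not tested. In all 245 Prkg2-gated cells, 2 counts were found among 5402131 UMIs. Summed over libraries, the level in other cartilage was 482 times that in the Prkg2-gated set (95% interval for counting error 133 to 3978). Bone and stroma held 34 counts, at 20.5, 5.29, 1.56 and 18.0 CPM. Of these, 22 were in the 20 cells that met neither the Cxcl12 nor the Bglap or Ibsp split, and the top cell held 10. The 95 Cxcl12 cells held 12 counts and the 45 Bglap or Ibsp cells held 0. The level in other cartilage was 196 CPM in cells without Runx2 and 97.5 CPM in cells with it, the reverse of Mmp2.

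Timp1, on the X chromosome at 20870166 to 20874735, is the inducible inhibitor and pairs with Mmp9. Its levels differed widely between libraries. In Prkg2-gated cartilage it stood at 722, 8.70, 0 and 132 CPM, in 15 of 38, 14 of 136, 0 of 15 and 13 of 56 cells. In other cartilage it stood at 179, 30.5, 365 and 160 CPM, and in bone and stroma at 549.7, 111, 150.1 and 295 CPM. No order of libraries was shared by the 3 sets, and the 3-month mutant library was the lowest in other cartilage and in bone and stroma. Single cells carried much of it. The top other cartilage cells held 265, 43, 288 and 191 counts and were also rich in Prg4, with 850, 1273, 624 and 986 counts. Without them other cartilage stood at 144, 15.5, 53.6 and 50.4 CPM, so the 12–16-month levels rested on those cells.

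Timp1 was also compared between cells with and without Y-linked counts. In other cartilage, cells with a Y-linked count stood at 768 CPM in the 3-month control (58 cells), 1390 CPM in the 12–16-month control (14 cells) and 1049 CPM in the 12–16-month mutant (20 cells). Cells with Xist and no Y-linked count stood at 101, 30.3, 48.4 and 46.9 CPM. Single cells carried the 12–16-month values. The top cell with a Y-linked count held 288 of 296 counts in control and 191 of 197 in mutant, and without them these cells stood at 56.7 CPM (24.5 to 112) and 36.8 CPM (13.5 to 80.1). The 3-month control cells with a Y-linked count stood at 481 CPM without their top cell, against 82.9 CPM in its Xist cells without theirs. Only the 3-month control library therefore kept the difference, and the part that sex plays was not tested. In bone and stroma the difference was smaller and not of 1 direction, with 135 and 334 CPM in Xist cells against 183 and 255.5 CPM in cells with a Y-linked count at 12–16 months. Prkg2-gated cells held 1, 3, 0 and 4 cells with a Y-linked count, and Timp1 in their Xist cells was 715, 8.62, 0 and 143 CPM, close to the full set.

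**Figure D2:**
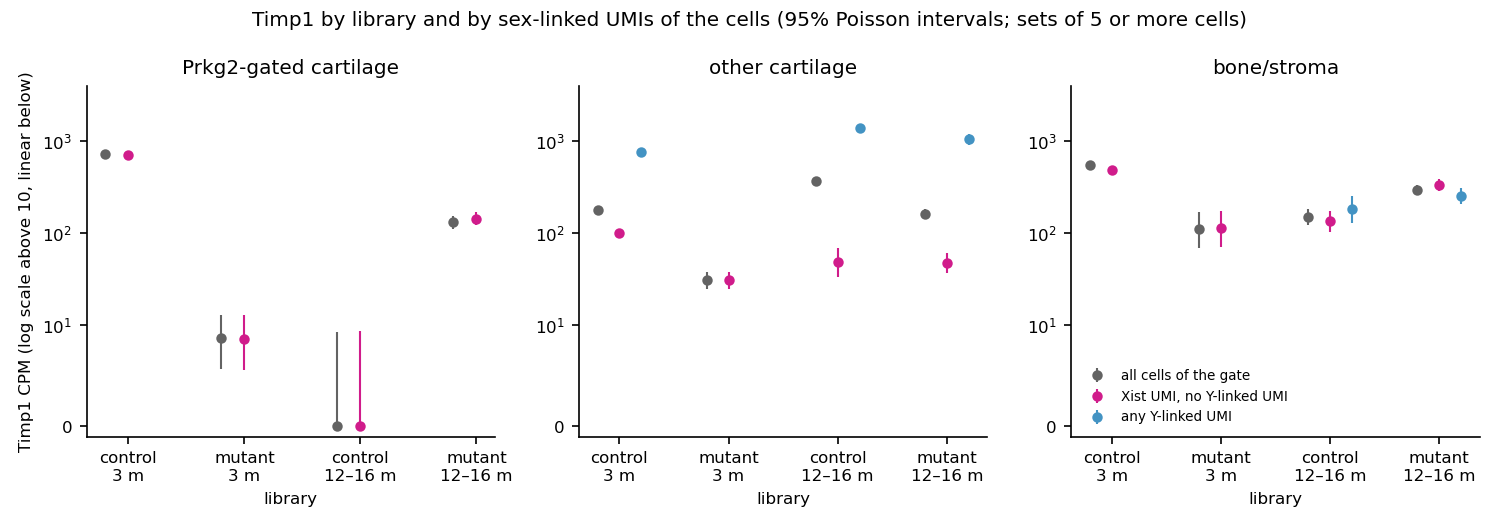
Timp1 level in CPM (symmetric log axis) in all cells, in cells with Xist and no Y-linked count, and in cells with any Y-linked count, for each library and cell set; sets under 5 cells are left out and bars are 95% Poisson intervals. In other cartilage the cells with a Y-linked count sit between 768 and 1390 CPM and the Xist cells between 30.3 and 101 CPM, but 1 cell held 288 of 296 counts of the 12–16-month control point and 1 cell held 191 of 197 counts of the mutant point.

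To test the differences between cell sets, counts were summed in each library for the 3 skeletal sets, and the 12 sums were fitted with library as a term (edgeR quasi-likelihood test, Benjamini-Hochberg adjustment over 9651 genes, threshold 0.05). The 4 libraries stand in as replicates although they differ in genotype and age. Since library is a term, a call means a difference between sets that is large against its own variation from library to library. The test was made on 7 of the 10 genes. Between bone and stroma and other cartilage, 42.3% of all genes tested passed, and 6 of 7 members did. The 3 proteases rose and 3 inhibitors fell in bone and stroma. On the log2 scale, Mmp13 was higher by 7.84 ± 1.34 (SE, 12 sums; edgeR adjusted p = 0.00047), Mmp2 by 4.93 ± 0.59 (edgeR adjusted p = 2.8e-05) and Mmp14 by 3.17 ± 0.28 (edgeR adjusted p = 2.5e-06). Timp2 fell by 1.13 ± 0.17 (edgeR adjusted p = 0.00018), Timp3 fell by 2.48 ± 0.54 (edgeR adjusted p = 0.0028) and Timp4 fell by 3.60 ± 0.34 (edgeR adjusted p = 4.3e-06). Timp1 did not pass, at 0.25 ± 0.82 (edgeR adjusted p = 0.84). Without the cells that held most of each member's counts, the Mmp13 difference was 10.96, since the single other cartilage cell described above was left out.

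Between Prkg2-gated and other cartilage, 31.3% of all genes passed, and 3 of 7 members did. Mmp2 rose in the Prkg2-gated set by 2.70 ± 0.59 on the log2 scale (edgeR adjusted p = 0.0041). Timp2 fell by 1.45 ± 0.17 (edgeR adjusted p = 5.2e-05). Timp4 passed as well (edgeR adjusted p = 5.0e-07), and its size is best read from the ratio of 482 above because its Prkg2-gated sums were 0 or 1. Mmp14 at 0.77 ± 0.29 (edgeR adjusted p = 0.064), Timp3 at 0.31 ± 0.50 (edgeR adjusted p = 0.69), Timp1 at -0.87 ± 0.86 (edgeR adjusted p = 0.48) and Mmp13 at 0.43 ± 1.43 (edgeR adjusted p = 0.86) did not pass. For Mmp13 this call rested on 1 library. Without the 3-month control library, whose single cell is described above, the difference was 4.05 (edgeR adjusted p = 0.017), and without the 12–16-month mutant library it was -1.84 (edgeR adjusted p = 0.42). Mmp14 passed without the 3-month mutant library, at 1.12 (edgeR adjusted p = 0.021). Mmp2 lost its call when cells that also met the blood gate were left in, at 2.67 (edgeR adjusted p = 0.055). No cell of either cartilage set met the blood gate. The 33 such cells entered bone and stroma, which is part of the same fit, so the 2 sets compared here were unchanged.

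Between Prkg2-gated cartilage and bone and stroma, 34.9% of all genes passed, and 5 of 7 members did. Timp3 alone rose in the Prkg2-gated set, by 2.79 ± 0.52 (edgeR adjusted p = 0.0011). Mmp13 fell by 7.41 ± 1.31 (edgeR adjusted p = 0.00074), Mmp14 fell by 2.41 ± 0.28 (edgeR adjusted p = 3.1e-05), Mmp2 fell by 2.23 ± 0.53 (edgeR adjusted p = 0.0057) and Timp4 fell by 5.47 ± 0.79 (edgeR adjusted p = 0.00016). The Timp4 value was fitted on 2 counts against 34, of which 22 were in the 20 cells outside both splits of bone and stroma. Timp2 at -0.32 ± 0.17 (edgeR adjusted p = 0.18) and Timp1 at -1.11 ± 0.83 (edgeR adjusted p = 0.33) did not pass. The Mmp2 call was lost without the 12–16-month mutant library, at -1.98 (edgeR adjusted p = 0.055).

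**Figure D3:**
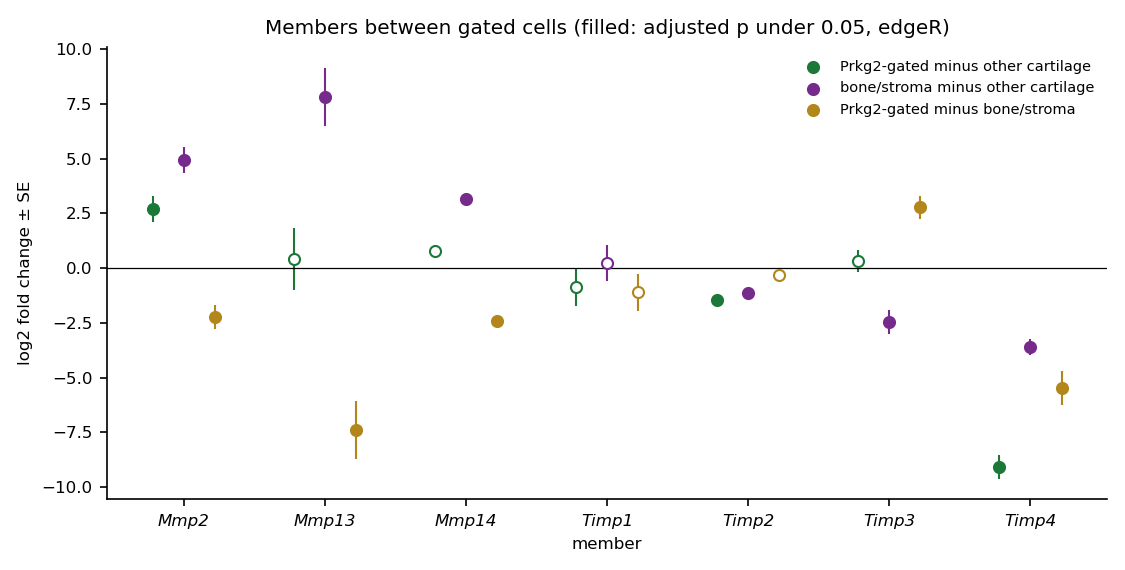
Log2 difference of the 7 tested genes between cell sets (points, with SE from the edgeR fit on 12 sums); filled points passed at an adjusted p under 0.05. Mmp13, Mmp2 and Mmp14 are above 0 and Timp2, Timp3 and Timp4 below 0 for bone and stroma against other cartilage.

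Shares of cells at equal depth follow the levels. Thinned to 2000 UMIs, Timp3 was expected in 78.5% of Prkg2-gated cells, 47.0% of other cartilage cells, 22.1% of bone and stroma cells and 3.55% of blood cells. For Timp4 the values were 0.0434%, 23.1%, 4.60% and 0.468%, so its share in the Prkg2-gated set was below that in blood cells. Whether these few counts are background was not tested.

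**Figure D4:**
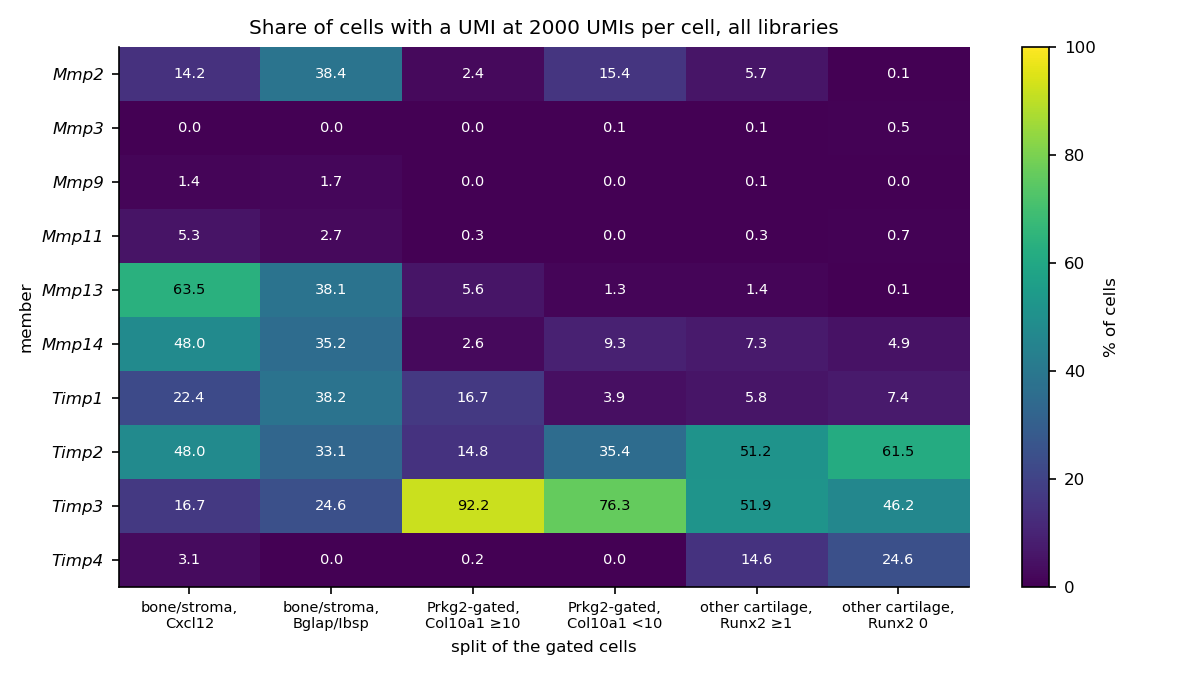
Expected share of cells (percent, colour) with a count of each gene after thinning to 2000 UMIs, over all libraries, in bone and stroma cells split by Cxcl12 and by Bglap or Ibsp, Prkg2-gated cells split by Col10a1 and other cartilage cells split by Runx2. Mmp13 is at 63.5% in Cxcl12 cells and 38.1% in Bglap or Ibsp cells, Timp3 at 92.2% and 76.3% in Prkg2-gated cells with and without at least 10 Col10a1 counts, and Timp4 at 14.6% and 24.6% in other cartilage with and without Runx2.

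Other genes of the pathway were read in the same fit. Of 16 further MMP genes, 2 had enough counts, and both rose in bone and stroma against other cartilage. Mmp16, a membrane-type MMP, was higher by 3.97 ± 0.48 and Mmp23 by 5.54 ± 0.38 on the log2 scale. Mmp16 was also higher in Prkg2-gated than in other cartilage, by 2.29 ± 0.47, as Mmp2 was. Of 20 genes that activate, inhibit or clear MMPs, 17 were tested. Between bone and stroma and other cartilage 6 rose and 8 fell, with a median log2 difference of -0.53, against -0.02 over all genes. The bone collagen protease Ctsk was higher by 2.86 ± 0.28, and Plaur, the urokinase receptor, was lower, at -2.97 ± 0.44. Between Prkg2-gated and other cartilage 1 rose and 7 fell (median -0.45, against -0.01 over all genes). Plaur stood at -3.94 ± 0.42 and Serpine2, an inhibitor of serine proteases, at -3.85 ± 0.65. Between Prkg2-gated cartilage and bone and stroma 4 rose and 6 fell, with Serpine2 at -5.74 ± 0.68.

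Of 18 transcription factors known to act on MMP genes, 16 were tested. Between bone and stroma and other cartilage 4 rose and 9 fell (median -1.29). Fos at -3.66 ± 0.37 and Junb at -3.53 ± 0.39, both AP-1 proteins, were lower, and Mef2c at 3.27 ± 0.43 and Epas1 at 2.56 ± 0.33 were higher. In Prkg2-gated against other cartilage 1 rose, namely Mef2c at 3.46 ± 0.44, and 9 fell, led by Cebpb at -3.91 ± 0.42. In Prkg2-gated cartilage against bone and stroma 6 rose and 4 fell. Genes of the dissociation and stress response, which include Fos and Junb, moved with these sets. All 10 of them fell in bone and stroma against other cartilage, and their summed level was 6158, 2001, 1192 and 1468 CPM there against 21497, 16548, 18267 and 13977 CPM. The part of dissociation in the AP-1 differences was not tested.

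The comparison of mutant with control has 1 library on each side and therefore no replicate check and no test. Ratios of CPM are given with exact 95% intervals for counting error only, and a gene is called here when it differed at least 1.5-fold with at least 20 counts over both libraries. At 3 months, 4 of the 6 genes counted in Prkg2-gated cartilage were called, against 38.6% of all genes. One of these calls was Mmp13, at 2.26 CPM in control and 6.69 CPM in mutant. It rested on 1 mutant cell with 17 of 20 counts, and the ratio was 0.875 without the top cells. In other cartilage 6 of 9 were called against 27.8%, and in bone and stroma 2 of 6 against 52.0%. At 12–16 months the counts were 3 of 6 against 34.3%, 2 of 5 against 24.0% and 5 of 7 against 43.5% in the same order. These background shares are large, so a fold of this size was common between these libraries.

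At 3 months Mmp2 was 7.23 times higher in the mutant library in Prkg2-gated cartilage (4.46 to 12.5) and 8.52 times higher in other cartilage (4.88 to 15.6). Other cartilage cells with a Runx2 count were 59 of 525 in control and 57 of 241 in mutant. Mmp2 stood at 16.0 and 68.7 CPM in them, and the part of this make-up in the ratio was not tested. In bone and stroma cells Mmp2 was lower in the mutant library, at a ratio of 0.469 (0.266 to 0.777). Of the 150 control counts, 98 were in 14 Bglap or Ibsp cells, and the mutant library held 3 such cells with 3 counts. Cxcl12 cells stood at 129.6 CPM (96.8 to 170) in control and 98.0 CPM (52.2 to 168) in mutant, and these intervals overlap. The part of this make-up in the ratio was not tested. Among Prkg2-gated cells with under 10 Col10a1 counts Mmp2 stood at 25.8 CPM in control and 156 CPM in mutant. The higher mutant level was thus also present in cells with few or no Col10a1 counts. At 12–16 months the ratio in Prkg2-gated cartilage was 0.544 (0.291 to 1.05), and that interval includes no difference. It was 0.836 without the top cells, since 1 control cell held 9 of 18 counts. In both cartilage sets Mmp2 was therefore higher in the 3-month mutant library, and in Prkg2-gated cartilage it was not higher in the older one, and the difference between the pairs was not tested.

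Timp4 in other cartilage was higher in the mutant library at both ages, by 2.66 times (2.43 to 2.90) at 3 months and 2.39 times (1.77 to 3.28) at 12–16 months. In cells with Xist and no Y-linked count these ratios were 2.56 and 2.36, and without the top cell of each library 2.65 and 2.46. The shares of cells at equal depth were 18.7% and 38.0% at 3 months and 10.9% and 21.1% at 12–16 months, so more cells held Timp4 in the mutant libraries of both pairs.

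Timp1 was lower in the 3-month mutant library in all 3 sets. Its level in the mutant library was 83.0-fold lower in Prkg2-gated cartilage (56.1 to 128), 5.89-fold lower in other cartilage and 4.95-fold lower in bone and stroma. In cells with Xist and no Y-linked count it was 82.9-fold, 3.33-fold and 4.32-fold lower, and without the top cells 70.4-fold lower in the first set and 9.28-fold lower in the second. In the control library, the Prkg2-gated cells with at least 10 Col10a1 counts stood at 1938 CPM and the others at 302 CPM, and in the mutant library at 35.4 and 4.63 CPM. The control values rested on few cells. Of the 7 cells behind the first, 1 held 239 of 440 counts, and 1 of the 31 behind the second held 133 of 199. At 12–16 months the direction differed by set, at a ratio of 0.438 (0.372 to 0.516) in other cartilage, 1.97 (1.55 to 2.51) in bone and stroma and at least 17.4-fold higher in Prkg2-gated cartilage, where the 15 control cells held none and the bound was set at 3 counts. That bound was 9.25-fold without the mutant cell that held 71 of 149 counts. The other cartilage ratio was 0.969 in Xist cells and 0.941 without the top cells. Both values are close to 1, so the 12–16-month difference of Timp1 in other cartilage rested on few cells. At 3 months the summed dissociation and stress genes were also lower in the mutant library than in control. They stood at 8764 against 13585 CPM in Prkg2-gated cartilage, 16548 against 21497 in other cartilage and 2001 against 6158 in bone and stroma. The part of this in the Timp1 ratios was not tested.

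Mmp13 in bone and stroma was at a ratio of 0.803 (0.735 to 0.876) at 3 months, under the fold for a call, and 1.57 (1.46 to 1.68) at 12–16 months. The older ratio was not shared by the summed levels in the splits of that set. Cxcl12 cells stood at 4820 CPM in control and 3590 CPM in mutant, and Bglap or Ibsp cells at 689 and 2206 CPM. Cxcl12 cells were 11 of 25 in control and 51 of 76 in mutant. In control, 1 Cxcl12 cell held 439 of 861 counts, and 1 Bglap or Ibsp cell held 159 of 315. Without the first of these cells, which held 22129 of 178635 UMIs, the control level in Cxcl12 cells falls below the mutant level. The order in the Cxcl12 cells therefore rests on 1 cell. In Xist cells the 12–16-month ratio was 5.09, and without the top cell of each library it was 2.20. In Prkg2-gated cartilage at 12–16 months the ratio was 29.7 (5.20 to 1188) on 85 counts against 1, and at least 3.75 without the top cells, which leaves no count in the control cells. In other cartilage at 3 months Mmp13 was at least 101-fold lower in the mutant library, which is the single control cell again.

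Mmp3 in other cartilage was lower in the 3-month mutant library, at a ratio of 0.0728 (0.00865 to 0.273) on 2 counts against 71, and at 0.162 without the top cell of each library. At 12–16 months its counts were 2 against 17, under the minimum for a call. Mmp9 had under 20 counts over both libraries in each of the 3 sets at both ages, so no ratio was called for it. Mmp14 lay between 0.913 and 1.18 times control in the 3 sets at 3 months, and between 0.687 and 1.39 at 12–16 months. Timp2 was 1.51 times higher (1.27 to 1.81) in the 3-month mutant library in Prkg2-gated cartilage and 0.935 times control in other cartilage. At 12–16 months it was 1.59 times higher in bone and stroma, where the median of all genes was itself higher by 0.38 on the log2 scale. Timp3 in the same cells was 2.64 times higher (1.91 to 3.73) and Mmp11 3.30 times higher (1.23 to 11.1). Mmp11 in other cartilage at 3 months was at 0.539 (0.160 to 1.44), an interval that includes no difference. In both cartilage sets Timp3 stayed between 0.671 and 1.21 times control. The bone and stroma libraries were not alike in make-up, with summed osteoblast markers at 93040, 37744, 166955 and 49838 CPM and marrow stroma markers at 4804, 12322, 4009 and 11095 CPM, and the part of this in the ratios was not tested.

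**Figure D5:**
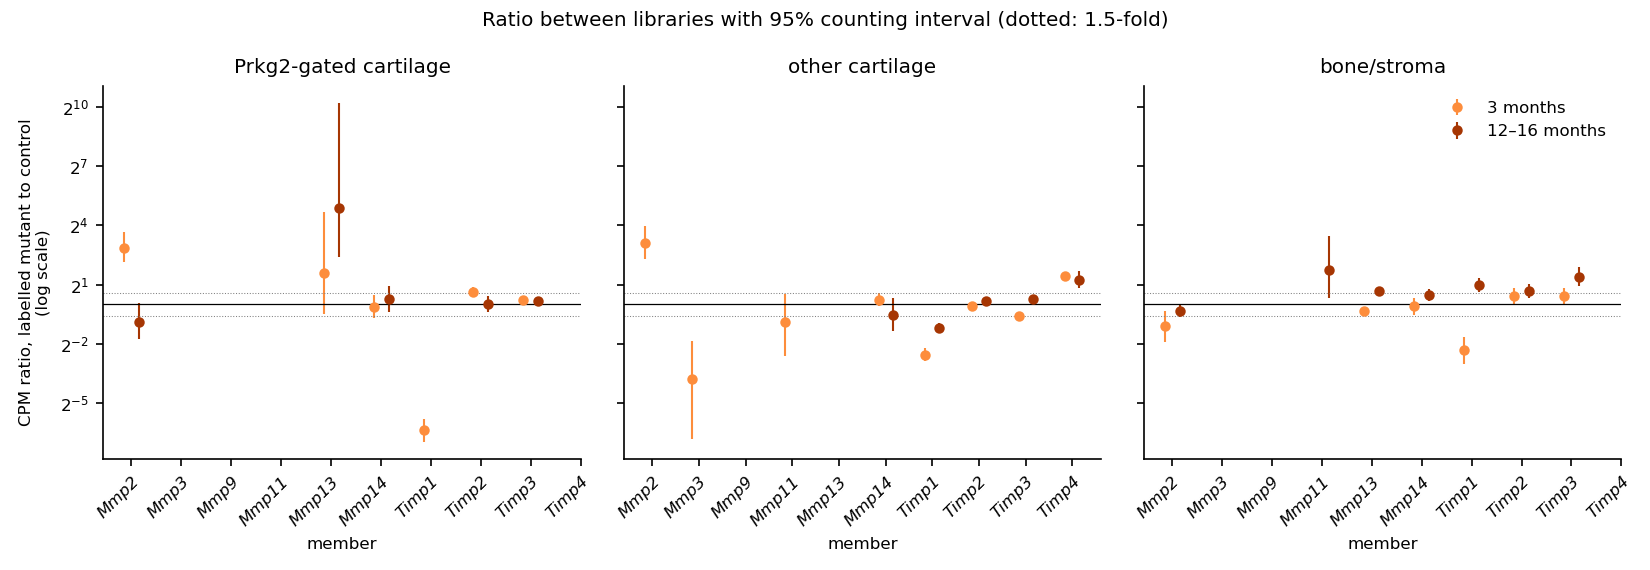
Ratio of mutant to control CPM (log axis) for each gene in the 3 skeletal cell sets at both ages, with exact 95% intervals for counting error; the dotted lines mark 1.5-fold, and ratios known only as bounds or with under 20 counts are not drawn. Timp4 in other cartilage is above 1 at both ages, at 2.66 and 2.39, and Mmp2 in Prkg2-gated cartilage is at 7.23 and 0.544.

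The comparisons by age use the same 4 libraries as those by genotype. Between 12–16 and 3 months in control, 4 of 5, 6 of 9 and 4 of 6 members were called in Prkg2-gated cartilage, other cartilage and bone and stroma, against 37.7%, 28.9% and 33.9% of all genes. In mutant the counts were 5 of 6, 5 of 6 and 4 of 7, against 34.0%, 28.9% and 39.3%. Timp3 in other cartilage was higher at 12–16 months by 2.26 times in control and 4.08 times in mutant. Timp4 there was lower in both, at ratios of 0.434 and 0.390. In Prkg2-gated cartilage Timp3 was lower in both, at 0.6215 and 0.605. Mmp14 there was higher in both, at 1.66 and 2.15, and the control ratio was 1.48 at its lowest under the alternatives. Timp3 in bone and stroma was lower in both, at 0.261 and 0.510. Mmp14 in the mutant other cartilage differed the other way, at 37.8 CPM at 3 months and 17.3 CPM at 12–16 months. Mmp2 in Prkg2-gated cartilage went in opposite directions, at 2.37 (1.15 to 4.89) in control and 0.178 in mutant. In the mutant bone and stroma Mmp2 stood at 90.0 CPM at 3 months and 212 CPM at 12–16 months. Timp1 in the control other cartilage was 2.03 times higher, but 0.480 in Xist cells and 0.372 without the top cells. In the mutant other cartilage Timp1 stood at 30.5 CPM at 3 months and 160 CPM at 12–16 months. Without the top cells these were 15.5 and 50.4 CPM. Mmp13 in bone and stroma was at 0.460 in control and 0.897 in mutant, and in Prkg2-gated cartilage it was 11.2 times higher (6.84 to 19.3) in mutant. In the control other cartilage it was at 0.0206, on the single 3-month cell described above. Timp2 was lower in bone and stroma in control, at 0.639, and stayed under the fold for a call elsewhere. Mmp3 in the control other cartilage was at 1.94 (1.07 to 3.32) and Mmp11 in the mutant bone and stroma at 0.610 (0.263 to 1.58), both on few cells. Mmp9 was again under 20 counts in each set.

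Genes whose levels ran most like each member were ranked by Pearson correlation of log2(CPM + 10) over 16 sums of library and cell set, among 6590 genes. The sums share libraries and the correlations are descriptions. Mmp2 was nearest to Mmp16 (r = 0.963) and Fign (r = 0.959). Mmp13 was nearest to Dapk2 (r = 0.959) and Postn (r = 0.958), the matrix protein periostin. Mmp14 was nearest to Fat1 (r = 0.980) and Lifr (r = 0.979), and Timp2 to Pkd2 (r = 0.985). Timp3 was nearest to Cst3 (r = 0.943), an inhibitor of cathepsins, and Ank (r = 0.940), which exports pyrophosphate. Timp4 was nearest to Htra4 (r = 0.966), a serine protease. Timp1 had the weakest leading neighbour, Spp1 (r = 0.883). Some members overlap other genes. Timp1 lies within Syn1, Timp3 within Syn3 and Timp4 within Syn2, all on the opposite strand, and these had 57, 1518 and 60 counts. Chchd10, with 441 counts, overlaps Mmp11 on the opposite strand, and Cep295nl, with 32 counts, lies within Timp2 on the same strand.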

How the data were processed

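Cells sorted from 4 mouse spine samples were profiled with a 10x Genomics 3′ v3.1 kit. The authors deposited raw UMI count matrices made with Cell Ranger 8.0.0 on mm10 with the tdTomato sequence added (32286 features, unit counts, not normalised). Steps the authors applied after that, such as removal of free RNA with SoupX and integration in Seurat, were not repeated, and whether the deposited counts had free RNA removed was not tested. Samples were grouped by the genotype and age in the labels, with 1 library in each of 4 conditions. Replicate numbers 1 only name the libraries.

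Cells with over 750 UMIs, over 500 genes and under 7% mitochondrial counts were kept. A cell that met several gates was placed in the first of blood, Prkg2-gated cartilage, other cartilage and bone and stroma. Of the cells kept, 223 met no gate. Doublets were called with Scrublet at an expected rate of 6% and kept in the values reported. The total of passing UMIs was 9429264, 7287981, 2154537 and 4398951 in the 4 libraries. UMI sums were scaled to CPM, with exact Poisson intervals at 95%, and ratios have exact conditional binomial intervals, which cover counting error only. A level of 0 was replaced by a floor of 3 counts where a bound was given. Shares are expected values after thinning to 2000 UMIs, leaving out 113 of the 1757 cells that had fewer. Between cell sets the edgeR quasi-likelihood test was used on sums per library with TMM scaling, filterByExpr and Benjamini-Hochberg adjustment. The test was checked on simulated counts, for Prkg2-gated against other cartilage only and with far fewer changed genes than were called here. How it does at the shares called in these data was not checked. The fit of this test on 12 sums has 1 sum for each library and set. With library as a term, p-values weigh a set difference against its variation from library to library.

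The 10 members, the gates and the lists of other MMP genes, of activators, inhibitors and clearance genes, of transcription factors, of stress genes and of cell markers were chosen with earlier results of these data known. All 10 members were named in every comparison, and of the lists at most the 4 genes with the largest called change in each contrast; 1 gene that this rule names is not reported here. Alternatives were DESeq2, no TMM, no filter on low counts, each library left out, blood cells added or left in, doublets removed, deeper cells, stricter gates, other scaling or weights, and a minimum of 50 counts. Leaving out the cell with most counts of a member, keeping cells with Xist and no Y-linked count, and both together, were chosen after seeing the data. Motifs were searched in the RefSeq start-site windows by letters alone. Software was Python 3.11.15, numpy 2.4.6, scipy 1.17.1, pandas 2.3.3, scanpy 1.11.5, matplotlib 3.10.9, R 4.3.3, edgeR 4.0.16 and DESeq2 1.42.0.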

Additional observations from a re-analysis of the deposited data

Results flagged for a closer look

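In 7 cases a gene moved in opposite directions in 2 pairs of libraries, each past 1.5-fold or known only as a bound. With 1 library in each condition the differences between the pairs were not tested. The pairs by genotype and by age are made of the same 4 libraries, so they are not separate evidence. All values are log2 ratios.

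Mmp2 in Prkg2-gated cartilage stood at 2.85 for mutant against control at 3 months and at -0.88 at 12–16 months. The older value has a counting interval of 0.291 to 1.05 as a ratio, and without the top cells the ratio was 0.836, which is under 1.5-fold. The same libraries gave 1.24 for 12–16 against 3 months in control and -2.49 in mutant. In other cartilage the age ratio of Mmp2 was 2.10 in control and -2.50 in mutant, where the 12–16-month control value came from 1 cell.

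Timp1 in Prkg2-gated cartilage stood at -6.38 for mutant against control at 3 months and at 4.12 at 12–16 months, the second set against the floor of 3 counts and at 3.21 without the top cell of each library. The age ratio was -6.57 in control, again set against that floor, and 3.92 in mutant. In bone and stroma Timp1 was at -2.31 at 3 months and 0.98 at 12–16 months by genotype, and its age ratio was -1.87 in control and 1.41 in mutant. The cells with a Y-linked count numbered 1, 3, 0 and 4 in Prkg2-gated cartilage and 3, 0, 9 and 32 in bone and stroma, and the part of sex in these values was not tested.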

How the results depend on the processing

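No paired analysis was possible because each condition had 1 library and the replicate numbers pair nothing. The count of genes called between cell sets stayed within 1.5 times the reported 3022, 4082 and 3370 under every alternative run. It was 2078 to 2727, 3061 to 3730 and 2573 to 3142 with a library left out, 3914, 5262 and 4394 with no filter, and 2886, 3892 and 3261 with DESeq2. Without TMM, 57.1% of calls in Prkg2-gated against other cartilage were higher, against 48.7% with it, and 57.4% against 47.1% in bone and stroma against other cartilage, and this moved the median of all genes by about 0.1 (from -0.01 to 0.09 and from -0.02 to 0.12).

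Of 273 refits of single members, 257 kept both direction and side of the threshold. With a library left out, Prkg2-gated against other cartilage gave -0.17 to 0.75 for Timp3 (negative without either 3-month library), -2.18 to 0.17 for Timp1 (positive without the 12–16-month control library) and -1.84 to 4.05 for Mmp13 (lowest without the 12–16-month mutant library). Timp1 there was at 0.35 without the top cells, and passed with no filter, at -0.96 (edgeR adjusted p = 0.0020). Mmp14 there passed with no filter, at 0.66 (edgeR adjusted p = 0.034). In bone and stroma against other cartilage, Timp1 ran from -0.0069 (without the 3-month mutant library) to 1.02, and was at -0.35 with blood cells left in. In Prkg2-gated cartilage against bone and stroma, Timp2 was at 0.17 and the Mmp2 call was lost at -1.98 with blood cells left in, and Timp1 passed with no filter, at -1.14 (edgeR adjusted p = 5.1e-05). The causes were not tested.

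Of 50 called ratios between libraries in the 3 skeletal sets, 45 kept their direction and 32 also their call under all alternatives. Directions that turned are given as log2 ratios, first for ratios over all cells, which are not among the 50. With equal weight for the 3 cell sets in place of all cells, Mmp11 was at 1.35 for mutant against control at 3 months, Mmp9 at -2.39 and Mmp14 at -0.24 for age in control, and Mmp9 at -2.24, Mmp11 at -0.55 and Mmp13 at -0.12 for age in mutant. Among the 50, bone and stroma Mmp2 was at 0.015 at 3 months and -0.27 for age in mutant with the mean of single cells. Mmp11 there was at 0.10 for age in mutant with that mean, and at 1.03 with blood cells left in. Without the top cells Mmp13 in Prkg2-gated cartilage at 3 months was at -0.19. Timp1 in other cartilage for age in control was at -1.43 without the top cells and -1.06 in Xist cells.

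Depth limits the rare members. Mmp3, Mmp9 and Mmp11 were counted 95, 177 and 102 times in all. No Timp1 count was found in the 15 Prkg2-gated cells of the 12–16-month control library. The floor of 3 counts is 7.58 CPM there, and the 95% Poisson interval reached 9.32 CPM.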
